A study of Mus musculus with 16 samples.

Results

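The module of the unfolded protein response and of protein folding in the endoplasmic reticulum (ER) was taken here as 39 named genes, out of 18193 genes represented on the arrays, in hepatic stellate cells of the mouse. Each gene was read from the probe sets that the platform annotation gives to that gene alone, and the probe set with the highest mean over all 16 arrays stood for it. Of the 39 members, 36 reached a log2 value of 5 on at least 2 arrays and were tested together with all other such genes, 7823 in total. The 3 members below this level were Derl3, Trib3 and Sesn2.

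Stellate cells store retinoids in the liver and can turn into matrix-producing myofibroblasts, and the series set resting cells beside cells activated in culture or by injury. RNA was profiled on 16 oligonucleotide arrays, and all cells came from male Balb/c mice aged 8 to 10 weeks, were isolated by density centrifugation and were depleted with magnetic beads of F4/80-positive cells, which are macrophages. The quiescent group (5 arrays) held cells of normal mice plated for 24 h. The culture group (3 arrays) held cells kept for 5 days on plastic in medium with 10% serum, and the coculture group (2 arrays, replicates 2 and 3 of the labels, out of 3 in the design text) held cells kept likewise with Kupffer cells, the macrophages of the liver, on the other side of a transwell insert. The bile duct ligation group (3 arrays) held cells of mice with a duct ligated for 15 days, a model of biliary fibrosis. The CCl4 group (3 arrays) held cells of mice given 4 injections of carbon tetrachloride into the peritoneum at 0.5 µl per g body weight, a model of toxic fibrosis. Cells of both injury groups were also plated for 24 h, so every group had been plated before RNA was taken.

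Proteins of the secretory pathway enter the ER through the Sec61 channel and are folded there by chaperones and disulfide isomerases, and what does not fold is returned to the cytosol and degraded. When unfolded protein accumulates, the sensors IRE1 (the product of Ern1), PERK (Eif2ak3) and ATF6 signal to the nucleus, where spliced XBP1, cleaved ATF6 and ATF4 raise the transcription of chaperone, degradation and amino acid genes. IRE1 and ATF6 act through RNA splicing and protein cleavage, which an array of transcript levels does not read. Stellate cells that secrete collagen load the ER with procollagen, whose folding needs prolyl hydroxylase and several of these chaperones.

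The start regions of the members were searched for the sequence elements through which the response is known to act. RefSeq windows on build GRCm38.p6, from 250 bases before to 50 bases after each annotated start, were found for 34 of the 39 members, and Manf, Hyou1, Atf6, Derl1 and Sec61a1 had none. The ER stress response element was searched as CCAAT, any 9 bases and CCACG on both strands. It is shown because 9 of the 34 members (26.5%) held it, against 37 of 27025 genes (0.137%) or 0.119% of all 32851 windows. In each line the capitals mark CCAAT and CCACG, each sequence runs 5′ to 3′ on the strand named, and 5 flanking bases stand on either side.
Hspa5 (chr2:34772020-34772048, plus strand): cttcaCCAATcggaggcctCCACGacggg
Creld2 (chr15:88819515-88819543, minus strand): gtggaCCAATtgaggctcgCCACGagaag
Pdia6 (chr12:17266486-17266514, plus strand): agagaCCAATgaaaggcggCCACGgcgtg
Calr (chr8:84847070-84847098, plus strand): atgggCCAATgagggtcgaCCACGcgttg
Hsp90b1 (chr10:86705633-86705661, minus strand): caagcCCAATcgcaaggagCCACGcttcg
Hsp90b1 (chr10:86705528-86705556, plus strand): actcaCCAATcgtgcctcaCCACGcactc
Canx (chr11:50325795-50325823, minus strand): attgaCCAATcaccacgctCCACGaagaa
Dnajc3 (chr14:118937822-118937850, plus strand): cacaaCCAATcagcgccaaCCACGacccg
Syvn1 (chr19:6046527-6046555, plus strand): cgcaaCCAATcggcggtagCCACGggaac
Derl3 (chr10:75893237-75893265, minus strand): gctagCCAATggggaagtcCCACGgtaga

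The distance of these matches from the start differed among the members. Counted from the annotated start, the match lay between -65 and -47 in Hspa5 and between -44 and -26 in Syvn1. It lay between -98 and -80 in Pdia6, between -105 and -87 in Dnajc3, between -126 and -108 in Creld2, between -145 and -127 in Canx, between -156 and -138 in Derl3 and between -162 and -144 in Calr. Hsp90b1 held 2 matches in opposite orientations, between -212 and -194 and between -107 and -89.

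ER stress response element II, searched as ATTGG, any 1 base and CCACG, was found in 2 members (5.88%), against 12 genes (0.0444%) or 0.0365% of windows. They are shown because these members, Herpud1 and Dnajb11, moved in opposite directions in culture. The capitals mark ATTGG and CCACG, and the Dnajb11 match lay just after the annotated start, from 7 to 17.
Herpud1 (chr8:94386372-94386392, plus strand): cgctgATTGGgCCACGttgga
Dnajb11 (chr16:22857847-22857867, plus strand): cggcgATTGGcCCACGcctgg

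The amino acid response element, the composite site of ATF4 and its partners, was searched as TGATGNAA. It was found in 5 members (14.7%), against 4.51% of genes and 3.97% of windows. They are shown because Asns and Chac1, known targets of ATF4, were among the members, and the capitals mark the 8 bases of the element.
Asns (chr6:7693220-7693237, minus strand): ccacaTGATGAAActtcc
Chac1 (chr2:119351044-119351061, minus strand): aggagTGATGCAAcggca
Atf3 (chr1:191183431-191183448, plus strand): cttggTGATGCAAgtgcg
Herpud1 (chr8:94386312-94386329, minus strand): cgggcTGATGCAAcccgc
Trib3 (chr2:152344034-152344051, plus strand): ccggcTGATGTAAacctg

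Single parts of the elements were common. CCACG alone stood in the windows of 27 members (79.4%), against 35.5% of genes and 32.8% of windows, and CCAAT alone in 26 (76.5%), against 41.1% and 37.4%. Both counts contain the matches to both whole elements, since ATTGG reads as CCAAT on the other strand. The core of the unfolded protein response element, TGACGTG, was found in Hspa5 alone of the members (2.94%), against 2.22% of genes and 2.01% of windows. A match is a run of letters and not a measured site.

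The 250 bases before the start are printed for 3 members that differ in their elements and in their values. Hspa5 holds TGACGTG and 1 ER stress response element, Creld2 holds the ER stress response element on the opposite strand, where it reads as CGTGG, 9 bases and ATTGG, and Herpud1 holds element II and the amino acid response element, which reads there as TTGCATCA. The capitals mark these matches.
Hspa5 (chr2:34771840-34772089, plus strand): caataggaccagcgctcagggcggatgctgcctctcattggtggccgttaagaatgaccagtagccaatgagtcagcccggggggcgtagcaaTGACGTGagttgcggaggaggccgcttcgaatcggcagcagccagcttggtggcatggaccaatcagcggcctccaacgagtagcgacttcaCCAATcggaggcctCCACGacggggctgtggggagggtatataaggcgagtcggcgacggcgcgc
Creld2 (chr15:88819396-88819645, plus strand): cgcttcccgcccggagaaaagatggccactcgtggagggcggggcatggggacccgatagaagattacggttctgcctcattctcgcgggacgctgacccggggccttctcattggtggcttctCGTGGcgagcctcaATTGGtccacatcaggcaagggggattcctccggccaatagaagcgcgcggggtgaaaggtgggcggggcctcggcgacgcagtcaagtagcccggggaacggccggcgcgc
Herpud1 (chr8:94386179-94386428, plus strand): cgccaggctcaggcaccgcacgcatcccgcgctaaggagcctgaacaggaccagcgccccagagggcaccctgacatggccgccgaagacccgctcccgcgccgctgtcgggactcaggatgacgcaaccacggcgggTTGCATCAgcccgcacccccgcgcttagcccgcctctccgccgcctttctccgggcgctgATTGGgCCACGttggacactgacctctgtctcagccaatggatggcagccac

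**Figure D1:**
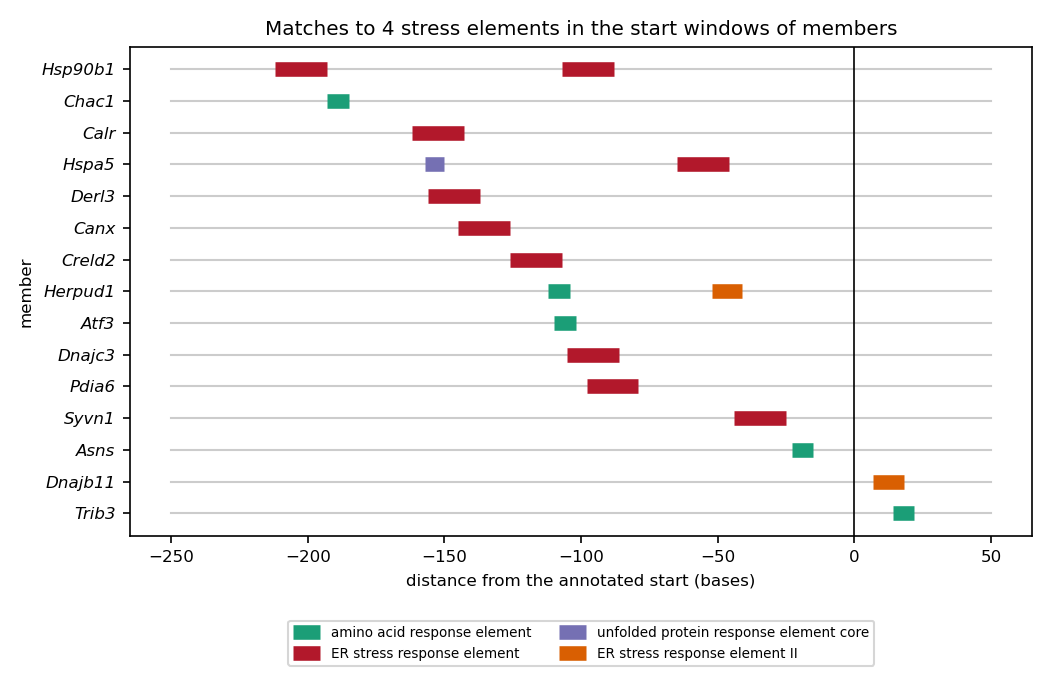
The start windows of the members that held at least 1 of 4 stress elements, with the distance from the annotated start in bases on the horizontal axis and 1 member per line. Coloured blocks are matches on either strand, and the ER stress response element stands in 9 members, all before the start.

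Members were read against all genes tested. With limma and Benjamini-Hochberg adjustment over 7823 genes, a gene was called when its adjusted p was under 0.05, and "rose" and "fell" are used of called members only. In culture against quiescent 5 of the 36 tested members rose and 8 fell, 36.1% of them in all. Of all genes tested, 42.1% were called there, 18.5% higher and 23.5% lower. In coculture against quiescent 10 rose and 2 fell, 33.3% of the members, where 38.7% of all genes were called, 17.8% higher and 20.9% lower. Chac1, among the 10, passed the level filter only through arrays of groups other than quiescent. After bile duct ligation 6 rose and 0 fell (2 had lower values at an unadjusted p under 0.05), 16.7% of the members, against 16.9% of all genes, 8.03% higher and 8.83% lower. After CCl4 6 rose and 3 fell, 25.0%, against 22% of all genes, 9.51% higher and 12.5% lower. In each of these 4 comparisons the share of members called was near that of all genes or below it.

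The comparisons that leave out the quiescent arrays gave a similar picture. In coculture against culture 6 members were higher and 0 lower (1 was lower at an unadjusted p under 0.05), 16.7% of them, where 15.4% of all genes were called, 8.37% higher and 7.03% lower. In culture against the mean of the 2 injuries 3 members were higher and 12 lower, 41.7%, where 50.9% of all genes were called, 25% higher and 25.9% lower. Between CCl4 and bile duct ligation limma called 0 members, with P4hb and Sel1l lower in CCl4 at an unadjusted p under 0.05, and 0.166% of all genes. The median log2 difference of the members was 0.03 in culture, 0.20 in coculture, 0.10 after bile duct ligation and 0.07 after CCl4, each against quiescent. The medians over all genes tested were -0.05, -0.04, -0.05 and -0.05. The median was 0.28 in coculture against culture, beside 0.01 over all genes, and -0.22 in culture against the injuries, beside -0.02.

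Of the 36, 11 were called in no comparison with quiescent cells, while Derl2 was called in all 4. Of the 61 calls over all comparisons, 22 were kept in each of 26 alternative settings of filter, probe set, model and arrays. Those lost most often were Syvn1 in culture (19 settings), Derl2 after CCl4 (18), Sel1l after CCl4 (15, and reversed in 2), Ssr1 in coculture against culture (16), Asns and Sec61b after bile duct ligation (14 each), and Pdia3 in culture, Hsp90b1 in coculture and P4hb after CCl4 (12 each). With the spread estimated from only the groups compared, the coculture calls of Calr, Pdia6, Creld2, Manf, Hyou1 and Hsp90b1 were lost, with adjusted p-values in limma between 0.0583 and 0.0839, and of those against culture only P4hb was kept.

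**Figure D2:**
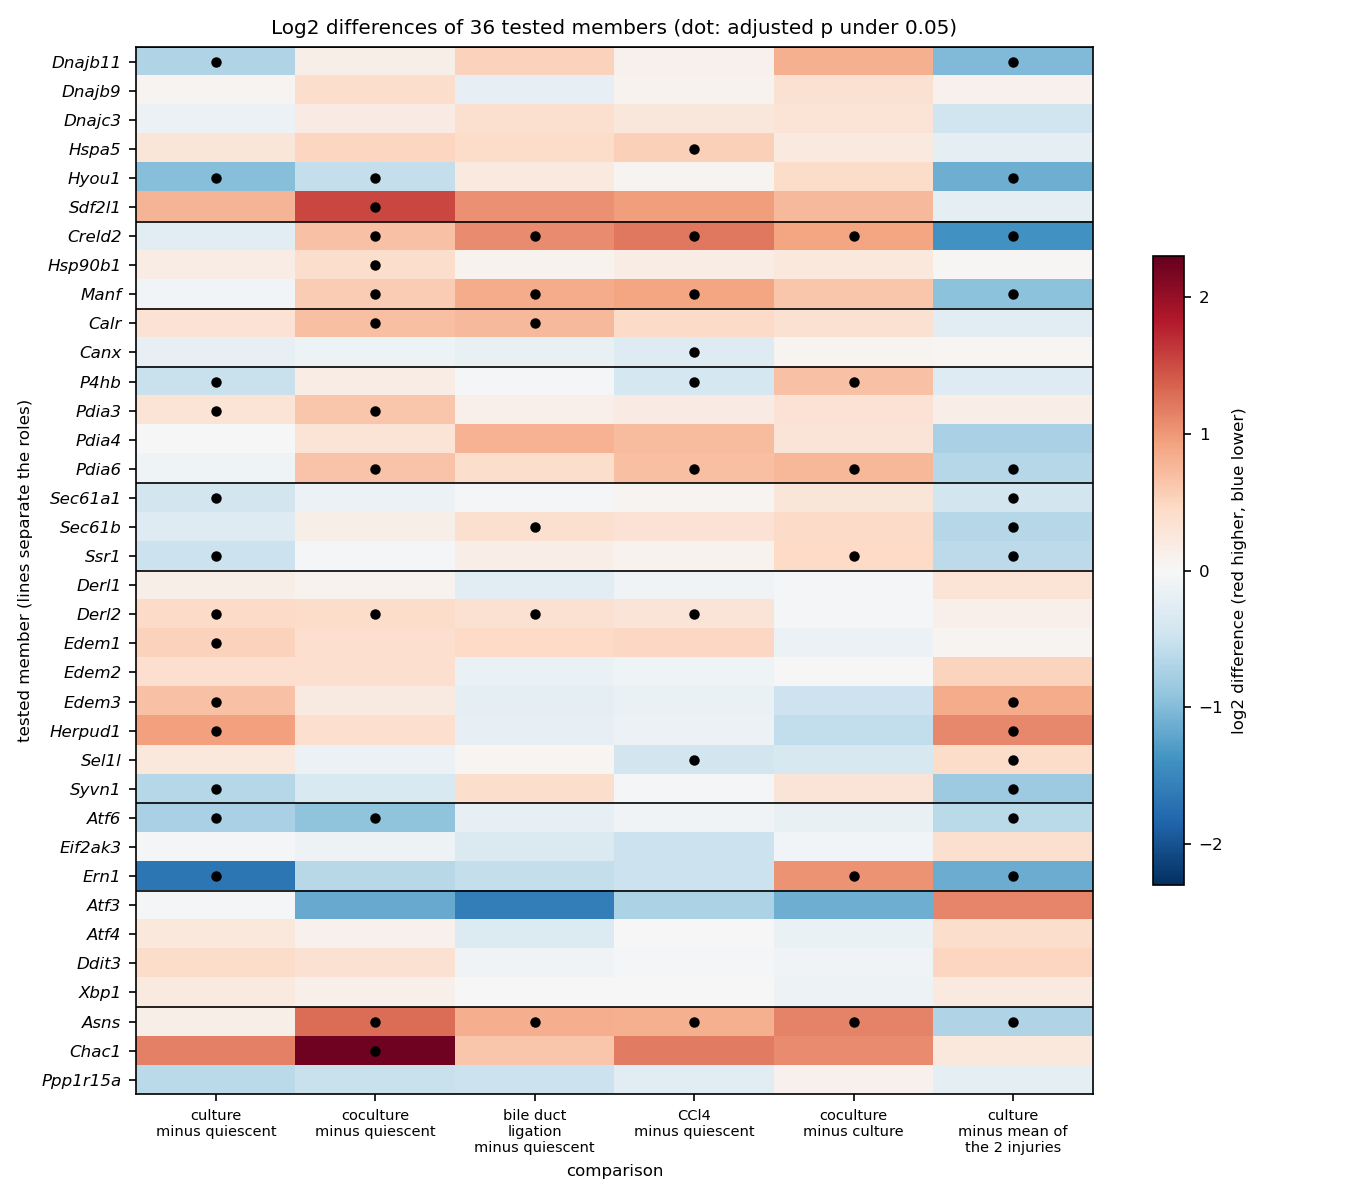
Log2 differences of the 36 tested members (rows, with lines between the roles) in 6 comparisons (columns), red higher and blue lower, with a dot where the adjusted p was under 0.05. Herpud1, Edem3, Edem1, Derl2 and Pdia3 are higher and Hyou1, Ern1 and the Sec61a1 and Ssr1 channel genes lower in culture, while Creld2 and Manf are higher in coculture and both injuries.

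Facts of the whole series bear on all of this. Array values ran from 0.04 to 13.88 on the log2 scale with array medians between 2.00 and 2.06, and between 6803 and 7037 genes per array reached log2 5. Pearson correlations across the tested genes were 0.929 to 0.983 within groups and 0.773 to 0.969 between them, and the number of arrays per group limits the precision. Of 10 stellate cell markers, 7 or 8 had group means of at least log2 5, with Vim, Pdgfrb, Reln and Des high in every group, and Gfap and Ngfr stayed below 4. The 8 tested markers also moved against quiescent. In culture 2 rose (Lrat by 4.14 ± 1.04 and Hgf by 1.44 ± 0.37) and 2 fell (Cygb by 1.51 ± 0.53 and Vim by 0.30 ± 0.10). In coculture 4 were called, all lower, with Reln at -3.25 ± 0.36, Cygb at -2.78 ± 0.61, Pdgfrb at -0.66 ± 0.20 and Vim at -0.43 ± 0.12. After bile duct ligation 2 were called, Hgf at -1.57 ± 0.37 and Reln at -1.13 ± 0.31, and after CCl4 3, Pdgfrb at -1.01 ± 0.17, Reln at -1.40 ± 0.31 and Cygb at -2.67 ± 0.53. Their part in the results of the members was not tested. Nothing in the labels ties an array to its own animal or pool of animals, and the p-values therefore cover the spread between these arrays and no more. In such bulk samples fewer cells of a type and less RNA per cell cannot be told apart.

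Because the same 5 quiescent arrays serve 4 of the comparisons, the values of these comparisons are given side by side and not set against each other. The HSP70 system of the ER lumen consists of the chaperone BiP (Hspa5), its nucleotide exchange factor (Hyou1), its J-domain partners (Dnajb9, Dnajb11 and Dnajc3) and Sdf2l1, which binds J-domain proteins. Of these 6, none rose and 2 fell in culture (Hyou1 and Dnajb11, with none higher at an unadjusted p under 0.05), 1 rose and 1 fell in coculture (Sdf2l1 and Hyou1), and Hspa5 rose after CCl4. Among all genes tested, 18.5% were higher and 23.5% lower in culture, 17.8% and 20.9% in coculture, and 9.51% and 12.5% after CCl4.

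Hyou1 gave log2 values of 7.48, 7.52, 7.42, 7.59 and 7.34 on the 5 quiescent arrays and 6.43, 6.53 and 6.52 in culture. In coculture the values were 7.14 and 6.70, after bile duct ligation 7.84, 7.54 and 7.71, and after CCl4 7.70, 7.47 and 7.44. Every culture array lay below every array of the other 4 groups, and both coculture arrays lay below every quiescent one. Hyou1 fell in culture by 0.98 ± 0.14 on the log2 scale (limma, standard error, 1.97-fold lower, adjusted p = 5.55e-05), a call kept in all 26 alternative settings tried. A second Hyou1 probe set, lower in level, differed by -2.08 in the same comparison. In coculture the gene fell by 0.55 ± 0.15 (adjusted p = 0.0113), and without coculture replicate 3 the difference was -0.33 (limma adjusted p = 0.22).

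Hspa5, which encodes the chaperone that holds the sensors silent until unfolded protein draws it away, read 12.32, 12.37, 11.79, 12.22 and 12.12 in quiescent cells. It read 12.51, 12.73 and 12.09 in culture, 13.11 and 12.23 in coculture, 12.67, 12.64 and 12.48 after bile duct ligation and 12.76, 12.79 and 12.62 after CCl4. All 6 injury arrays lay above all 5 quiescent ones, while the culture and coculture arrays overlapped them. Hspa5 rose after CCl4 by 0.56 ± 0.18 (1.47-fold, limma adjusted p = 0.0361), and the difference after bile duct ligation was 0.43 ± 0.18 with an adjusted p of 0.115. The CCl4 call was lost without any 1 of 5 arrays (quiescent replicates 3 and 5 and each CCl4 array, adjusted p between 0.0629 and 0.124). The culture difference was 0.28 ± 0.18 (adjusted p = 0.224) and the coculture difference 0.50 ± 0.20 (limma adjusted p = 0.0626).

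Dnajb11 read 7.85, 7.79 and 6.64 in culture, between 7.81 and 8.33 in quiescent cells, 8.68 and 7.83 in coculture, between 8.58 and 8.72 after bile duct ligation and between 8.12 and 8.29 after CCl4. Its fall in culture of 0.69 ± 0.25 (limma adjusted p = 0.0338) leaned on culture replicate 3, without which the difference was -0.30 (adjusted p = 0.259). The call was also lost without quiescent replicate 1, 4 or 5, at an adjusted p of at least 0.0519. Against the mean of the injuries, culture was lower by a log2 difference of -1.01 ± 0.24 (limma adjusted p = 0.00253), with no overlap and a call kept in all 26 settings. Sdf2l1 read 7.51 and 5.59 in coculture against 4.87 to 5.31 in quiescent cells, a rise of 1.53 ± 0.56 (limma adjusted p = 0.0425). Without coculture replicate 2 the Sdf2l1 difference was 0.57 (adjusted p = 0.556), and the call was lost without any 1 of 8 arrays in all. Sdf2l1 split the culture group too, at 6.45, 6.60 and 4.37, where the difference from quiescent was 0.78 ± 0.49, and without culture replicate 3 it was 1.5 (limma adjusted p = 0.0153). Dnajb9 and Dnajc3 were called in no comparison.

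The other ER chaperones were Hsp90b1, the HSP90 of the ER, and Manf and Creld2, luminal proteins that are also secreted under stress. Of these 3, none was called in culture (0 also at an unadjusted p under 0.05), 3 rose in coculture, and Manf and Creld2 rose after both injuries. Among all genes tested, 17.8% were higher in coculture, 8.03% after bile duct ligation and 9.51% after CCl4.

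Creld2 read 8.48, 8.30, 8.30, 8.31 and 8.36 in quiescent cells and 8.08, 8.39 and 7.87 in culture. It read 9.57 and 8.47 in coculture, 9.68, 9.32 and 9.34 after bile duct ligation and 9.80, 9.51 and 9.36 after CCl4. The 6 injury arrays lay above every quiescent and culture array, and only coculture replicate 2 lay among them. Creld2 rose after bile duct ligation by 1.10 ± 0.20 (2.14-fold, limma adjusted p = 0.00141) and after CCl4 by 1.21 ± 0.20 (2.31-fold, adjusted p = 0.000648). Both calls were kept in all 26 settings. Culture lay below the mean of the injuries, at a log2 difference of -1.39 ± 0.19 (limma adjusted p = 4.03e-05), also kept throughout. In culture against quiescent the difference was -0.23 ± 0.20.

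Manf read between 10.10 and 10.71 in quiescent cells with a median of 10.32, and 10.11, 10.58 and 10.24 in culture. It read 11.29 and 10.62 in coculture, 11.31, 11.22 and 11.12 after bile duct ligation and 11.52, 11.23 and 11.08 after CCl4. The injury arrays again lay above all quiescent and culture arrays. Manf rose by 0.85 ± 0.17 after bile duct ligation (1.8-fold, limma adjusted p = 0.0028) and by 0.91 ± 0.17 after CCl4 (1.88-fold, adjusted p = 0.00152), calls kept in all 26 settings. Culture was lower than the mean of the injuries by a log2 difference of -0.94 ± 0.17 (limma adjusted p = 0.000278), also kept.

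The coculture calls of these chaperones rested on replicate 2. Creld2 rose by 0.68 ± 0.23 (limma adjusted p = 0.0299), Manf by 0.59 ± 0.20 (0.0263) and Hsp90b1 by 0.40 ± 0.15 (0.0466). Without coculture replicate 2 the 3 differences were 0.13, 0.26 and 0.18, and the adjusted p-values 0.705, 0.434 and 0.513 in limma. Hsp90b1 read 11.95 and 11.50 in coculture against 11.06 to 11.46 in quiescent cells, and its call was lost without any 1 of 8 arrays. It differed by 0.08 after bile duct ligation and 0.18 after CCl4 and did not pass. A second Hsp90b1 probe set, at log2 5 on all 16 arrays, gave 0.76 in coculture and 0.13 after bile duct ligation. After CCl4 that probe set gave 0.68 (limma adjusted p = 0.013), so the CCl4 result depends on the probe set.

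**Figure D3:**
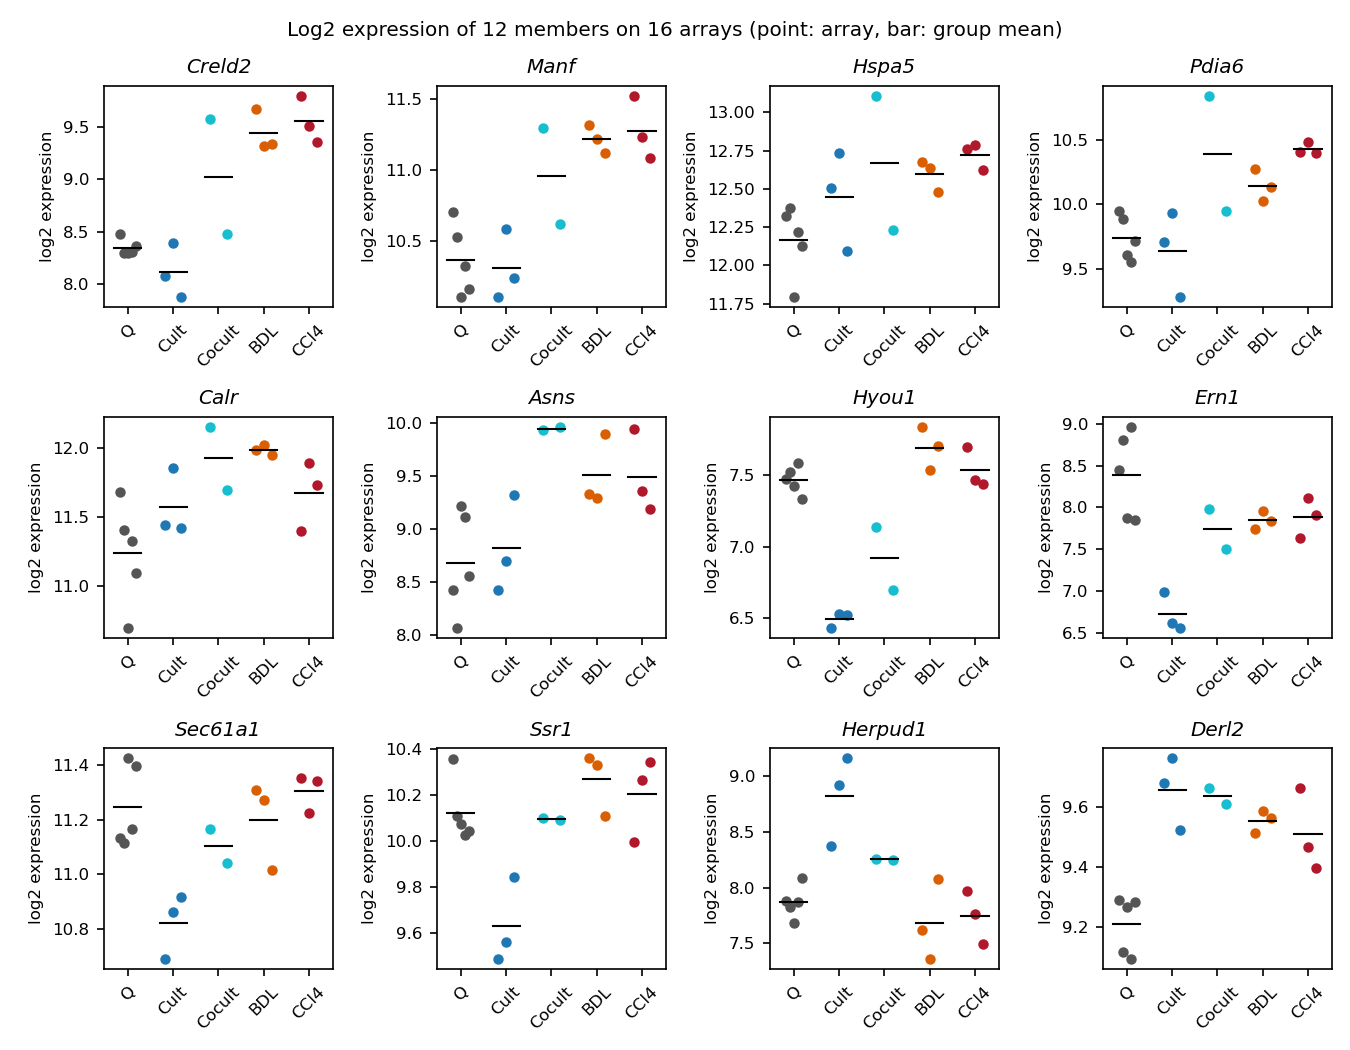
Log2 expression of 12 members on the 16 arrays by group (Q quiescent, Cult culture, Cocult coculture, BDL bile duct ligation, CCl4), with 1 point per array and a bar at the group mean. Creld2 and Manf stand higher on all 6 injury arrays than on all quiescent and culture arrays, and Hyou1 and Ern1 stand lowest in culture. The vertical axes do not start at 0 and differ between panels.

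Calreticulin (Calr) and calnexin (Canx) are the lectin chaperones that hold glycoproteins while they fold. Calr read 11.68, 11.41, 10.69, 11.33 and 11.10 in quiescent cells, 11.99, 12.03 and 11.95 after bile duct ligation and 11.40, 11.90 and 11.73 after CCl4. It read 12.16 and 11.70 in coculture and 11.44, 11.86 and 11.42 in culture. The bile duct ligation arrays lay above all quiescent ones. Calr rose after bile duct ligation by 0.75 ± 0.19 (1.68-fold, limma adjusted p = 0.0119, kept in all 26 settings). It rose in coculture by 0.69 ± 0.21 (adjusted p = 0.0201), and without coculture replicate 2 the difference was 0.46 (limma adjusted p = 0.239). The CCl4 difference of 0.43 ± 0.19 did not pass.

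Canx went the other way. It read 11.19 to 11.33 in quiescent cells and 10.88, 10.95 and 11.04 after CCl4, where it fell by 0.30 ± 0.09 (limma adjusted p = 0.0273). The groups did not overlap, but the call was lost without quiescent replicate 5, CCl4 replicate 1 or CCl4 replicate 2 (adjusted p between 0.0612 and 0.126). With each array centred on its own median the difference was -0.23 (limma adjusted p = 0.0758).

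The 4 protein disulfide isomerases, which form and rearrange disulfide bonds, differed among themselves. P4hb, also the beta subunit of the prolyl 4-hydroxylase that modifies procollagen, fell in culture and after CCl4. Pdia3, the partner of calreticulin and calnexin, rose in culture and in coculture. Pdia6 rose in coculture and after CCl4, and Pdia4 was called in no comparison, at 0.80 ± 0.33 after bile duct ligation and 0.73 ± 0.33 after CCl4 (limma adjusted p = 0.115 and 0.134).

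P4hb read 11.53, 11.33, 10.97, 11.39 and 11.30 in quiescent cells, 10.89, 10.90 and 10.59 in culture and 11.44 and 11.51 in coculture. After CCl4 it read 10.59, 11.01 and 11.09, and after bile duct ligation 11.24, 11.23 and 11.33. The culture arrays lay below all quiescent and both coculture arrays. P4hb fell in culture by 0.51 ± 0.13 (1.42-fold lower, limma adjusted p = 0.00566, and 0.0573 with quiescent replicate 4, culture replicate 3 and CCl4 replicate 3 all left out). It was higher in coculture than in culture by 0.68 ± 0.16 (1.6-fold, adjusted p = 0.0107), with an adjusted p of 0.0655 without coculture replicate 2 and 0.0666 without replicate 3. The fall after CCl4 of 0.41 ± 0.13 (limma adjusted p = 0.0367) was lost without quiescent replicate 1, 2, 4 or 5 or CCl4 replicate 1 or 2, and without CCl4 replicate 1 the difference was -0.25 (adjusted p = 0.248).

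Pdia6 read between 9.55 and 9.95 in quiescent cells, 9.71, 9.93 and 9.28 in culture, 10.84 and 9.95 in coculture, 10.27, 10.03 and 10.13 after bile duct ligation and 10.41, 10.49 and 10.40 after CCl4. Both sets of injury arrays lay above the quiescent ones. Pdia6 rose after CCl4 by 0.69 ± 0.18 (1.61-fold, limma adjusted p = 0.013), and was higher in coculture than in culture by 0.76 ± 0.22 (adjusted p = 0.0325). That coculture call was lost without coculture replicate 2 (0.31, limma adjusted p = 0.513) and without culture replicate 1 or 3 (0.0551 and 0.12). In coculture against quiescent the rise of 0.65 ± 0.21 (adjusted p = 0.0207) became 0.21 without coculture replicate 2 (limma adjusted p = 0.504). Culture was lower than the injuries at -0.65 ± 0.17 (adjusted p = 0.00582), a call missed without culture replicate 3 at 0.0518. With the mean of all its probe sets the CCl4 difference was 0.27 (limma adjusted p = 0.218).

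Pdia3 read 11.67 and 11.42 in coculture against 10.64 to 11.09 in quiescent cells. Its coculture rise of 0.64 ± 0.13 (1.56-fold, limma adjusted p = 0.0015) was 1 of 2 coculture calls kept in all 26 settings, the other being Asns. In culture Pdia3 rose by 0.31 ± 0.11 (adjusted p = 0.0407), with arrays that touched the quiescent range, and the call was lost without quiescent replicate 3 or 4, culture replicate 1 or 2, bile duct ligation replicate 2 or CCl4 replicate 3. Without culture replicate 2 that difference was 0.20 (limma adjusted p = 0.229).

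Transcripts of the translocon, the channel and its attached proteins (Sec61a1, the channel subunit, Sec61b, a small subunit, and Ssr1, of the translocon-associated complex), were read in all groups, and Sec61a1 and Ssr1 fell in culture. Sec61a1 read 10.69, 10.86 and 10.92 in culture, between 11.11 and 11.42 in quiescent cells, 11.16 and 11.04 in coculture, between 11.02 and 11.31 after bile duct ligation and between 11.22 and 11.35 after CCl4. Ssr1 read 9.48, 9.56 and 9.84 in culture, between 10.03 and 10.36 in quiescent cells, 10.10 and 10.09 in coculture and between 10.00 and 10.36 on the 6 injury arrays. For both genes every culture array lay below every array of the other groups.

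Sec61a1 fell in culture by 0.42 ± 0.10 (limma adjusted p = 0.00375) and Ssr1 by 0.49 ± 0.12 (0.00369), and both calls were kept in all 26 settings. Sec61b differed there by -0.30 ± 0.12 and did not pass (limma adjusted p = 0.0503). Lower probe sets of Sec61a1 disagreed, between -1.26 and 0.17 in the same comparison. Against the mean of the injuries all 3 genes were lower in culture, Sec61a1 at -0.43 ± 0.10, Sec61b at -0.66 ± 0.11 and Ssr1 at -0.61 ± 0.11 (limma adjusted p = 0.00206, 0.000254 and 0.000461), again kept throughout. Sec61b read 10.29, 10.35 and 10.30 after bile duct ligation against 9.83 to 10.20 in quiescent cells, where replicate 1 was the highest for Sec61b and Ssr1, and it rose by 0.37 ± 0.12 (adjusted p = 0.0408), a call lost without any 1 of 10 arrays. Ssr1 was higher in coculture than in culture by 0.47 ± 0.15 (limma adjusted p = 0.0435), lost without any 1 of 10 arrays as well, with 0.39 as its smallest value, without culture replicate 1.

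In culture against quiescent, 18.5% of all genes tested were higher and 23.5% lower. Of the 8 tested genes of ER-associated degradation 4 rose and 1 fell in culture. The 4 were Herpud1, a membrane protein that gathers the degradation complex, Edem1 and Edem3, lectins that pass misfolded glycoproteins on, and Derl2, a channel-like protein of the same complex. Derl3 was listed between 1.61 and 2.11 on the 16 arrays, near the array medians.

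Herpud1 read 7.88, 7.82, 7.68, 7.87 and 8.09 in quiescent cells and 8.38, 8.92 and 9.16 in culture. It read 8.26 and 8.25 in coculture, 7.62, 7.36 and 8.08 after bile duct ligation and 7.97, 7.76 and 7.49 after CCl4. Every culture array lay above every other array, and both coculture arrays lay above the quiescent ones. Herpud1 rose in culture by 0.95 ± 0.19 (1.93-fold, limma adjusted p = 0.00108) and was higher there than the mean of the injuries by 1.11 ± 0.18 (adjusted p = 0.000175), both kept in all 26 settings. A second probe set gave 1.37 in culture against quiescent. The coculture difference from quiescent was 0.38 ± 0.22 and did not pass, while the second probe set gave 0.78 there (limma adjusted p = 0.0176).

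Derl2 read between 9.09 and 9.29 in quiescent cells, 9.68, 9.77 and 9.53 in culture, 9.67 and 9.61 in coculture, 9.51, 9.59 and 9.57 after bile duct ligation and 9.67, 9.47 and 9.40 after CCl4. All 11 other arrays lay above all 5 quiescent ones, by small distances. Derl2 rose by 0.45 ± 0.10 in culture (1.37-fold, limma adjusted p = 0.00219, kept in all 26 settings). It rose by 0.43 ± 0.11 in coculture (adjusted p = 0.00804), 0.35 ± 0.10 after bile duct ligation (0.0247) and 0.30 ± 0.10 after CCl4 (0.041). The coculture call was lost without replicate 2 (limma adjusted p = 0.069), the bile duct ligation call without any of its 3 arrays (0.0659 to 0.0896) and the CCl4 call without any 1 of 10 arrays (0.0501 to 0.214).

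Edem3 read 8.93, 8.98 and 9.36 in culture against 7.94 to 8.82 in quiescent cells, and rose by 0.68 ± 0.18 (limma adjusted p = 0.00786, and 0.0514 without culture replicate 3). It was higher in culture than the mean of the injuries by 0.86 ± 0.18 (adjusted p = 0.000946). Its second probe set, at no array above log2 5, differed by -1.05 in culture against quiescent. Edem1 rose in culture by 0.53 ± 0.18 (limma adjusted p = 0.0283), with arrays between 8.46 and 8.61 against an overlapping 7.64 to 8.47, and its call was lost without quiescent replicate 4 or 5 or any culture array (0.052 to 0.0908). The Edem1 differences after the injuries were of like size, 0.46 ± 0.18 and 0.48 ± 0.18, and did not pass. In coculture it differed from quiescent by 0.38 and did not pass either. A second Edem1 probe set, at log2 5 on all 16 arrays, gave 1.37 in coculture (limma adjusted p = 0.000228). That probe set gave 0.57 in culture, 0.43 after bile duct ligation and 0.32 after CCl4.

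Sel1l and Syvn1, scaffold and ubiquitin ligase of 1 degradation complex, did not move together. Syvn1 read 6.86, 6.67 and 6.25 in culture, within or below the quiescent range of 6.60 to 7.65. It fell by 0.65 ± 0.25 (limma adjusted p = 0.048), a call lost without any 1 of 12 arrays, and lay below the mean of the injuries at -0.84 ± 0.24 (0.00967, and 0.0653 without culture replicate 3). Sel1l was higher in culture than in the injuries by 0.43 ± 0.14 (adjusted p = 0.017, and 0.0705 without culture replicate 2). In culture against quiescent the probe set used gave 0.24 and did not pass, while all other Sel1l probe sets gave 0.68 to 1.38. With the mean of all its probe sets that difference was 0.85 (limma adjusted p = 0.000239). Sel1l fell after CCl4 by 0.43 ± 0.14 (limma adjusted p = 0.0436), and the call was lost without any 1 of 10 arrays. Other Sel1l probe sets differed between -0.35 and 0.62 after CCl4 and between 0.28 and 2.35 in coculture, where the probe set used gave -0.14, so no direction can be read for the gene in these comparisons. Edem2 and Derl1 were called in no comparison. A second Derl1 probe set, at log2 5 on all 16 arrays, differed from quiescent by 0.52 in culture and 1.07 in coculture (limma adjusted p = 0.0185 and 0.000488). Its remaining probe sets gave -0.28 and -0.45 in culture and 0.02 and -0.24 in coculture, so no direction can be read for Derl1 there.

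Of the 3 sensors, Ern1 and Atf6 fell in culture and Eif2ak3 was called in no comparison. In culture 23.5% of all genes tested were lower than quiescent. Ern1, which encodes the kinase and nuclease that splices Xbp1 RNA, read 8.45, 8.80, 7.87, 8.96 and 7.85 in quiescent cells and 6.99, 6.62 and 6.55 in culture. It read 7.99 and 7.50 in coculture, 7.74, 7.96 and 7.84 after bile duct ligation and 7.63, 8.11 and 7.91 after CCl4. Every culture array lay below every other array.

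Ern1 fell in culture by 1.67 ± 0.24 (3.18-fold lower, limma adjusted p = 9.12e-05), the largest fall among the members, and lay below the mean of the injuries at -1.15 ± 0.24 (adjusted p = 0.00093). Both calls were kept in all 26 settings. In coculture it was higher than in culture by 1.02 ± 0.30 (2.03-fold, limma adjusted p = 0.0325), a call lost without culture replicate 2 (0.0811), culture replicate 3 (0.0935) or coculture replicate 2 (0.78, adjusted p = 0.29). The differences from quiescent cells in coculture, after bile duct ligation and after CCl4 were -0.64 ± 0.28, -0.54 ± 0.24 and -0.50 ± 0.24 and did not pass.

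Atf6 read 7.63, 7.34 and 6.89 in culture and 7.46 and 6.77 in coculture, against 8.24, 8.05, 7.59, 8.51 and 7.80 in quiescent cells. Both coculture arrays and all but 1 of the culture arrays lay below every quiescent one. It fell in culture by 0.75 ± 0.24 (limma adjusted p = 0.0205) and in coculture by 0.93 ± 0.28 (0.0154). The culture call was lost without culture replicate 3 (-0.55, adjusted p = 0.118) and the coculture call without replicate 3 (-0.58, limma adjusted p = 0.236). A second Atf6 probe set gave -0.45 in culture and 0.69 in coculture, so the coculture direction depends on the probe set. Culture lay below the injuries at -0.62 ± 0.23 (adjusted p = 0.0365), a call lost without culture replicate 2 or 3, bile duct ligation replicate 1 or CCl4 replicate 2 or 3. Eif2ak3, the PERK gene, read 4.84 to 6.48 over all arrays.

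The transcription factors of the response, Xbp1, Atf4, Ddit3 and Atf3, were called in none of the 7 comparisons by limma. At an unadjusted p under 0.05 the sole entry was Atf3, lower after bile duct ligation. Xbp1 read between 10.12 and 10.85 over all 16 arrays and differed from quiescent by 0.23 ± 0.13 in culture (95% interval -0.05 to 0.51), 0.11 ± 0.15 in coculture, 0.01 ± 0.13 after bile duct ligation (interval -0.27 to 0.29) and -0.01 ± 0.13 after CCl4 (interval -0.28 to 0.27).

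Atf4, whose protein is raised by translation more than by transcription, differed by 0.24 ± 0.21 in culture, 0.09 ± 0.24 in coculture, -0.32 ± 0.21 after bile duct ligation and -0.01 ± 0.21 after CCl4. A second Atf4 probe set, at log2 5 on all 16 arrays, gave -0.28, -0.34, -0.43 and -0.15 in the same order. The sign in culture and coculture thus depends on the probe set. Ddit3, which encodes CHOP, a factor of the late and death-linked phase, read 10.08 and 8.20 on the 2 coculture arrays and 9.58, 9.56 and 8.53 in culture, against 8.43 to 9.10 in quiescent cells. Its differences were 0.43 ± 0.33 in culture and 0.35 ± 0.38 in coculture, where it was 1.29 without coculture replicate 3 (limma adjusted p = 0.0157). After the injuries it differed by -0.09 ± 0.33 and -0.05 ± 0.33. Atf3 was the most variable of them, from 4.01 to 7.80 among the quiescent arrays, where replicate 4 was the highest. Ppp1r15a, the feedback subunit that restarts translation, was also highest there, at 9.94 against 7.20 to 8.45 on the other 4, and was called in no comparison.

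Of the 3 tested genes of the amino acid and feedback arm, Asns and Chac1 rose in coculture, where 17.8% of all genes tested were higher. Asns encodes asparagine synthetase, and Chac1 an enzyme that degrades glutathione, both targets of ATF4. Asns read 8.43, 8.06, 9.22, 9.11 and 8.56 in quiescent cells, 8.42, 8.70 and 9.32 in culture and 9.94 and 9.97 in coculture. After bile duct ligation it read 9.33, 9.30 and 9.90 and after CCl4 9.95, 9.36 and 9.19. The coculture arrays lay above every quiescent and culture array, the bile duct ligation arrays lay above every quiescent one, and CCl4 replicate 3 lay just within the quiescent range.

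Asns rose in coculture by 1.28 ± 0.31 against quiescent (2.42-fold, limma adjusted p = 0.00483, kept in all 26 settings). It was higher than in culture by 1.14 ± 0.34 (adjusted p = 0.0334), where leaving out culture replicate 1 or 2 or either coculture array ended the call (limma adjusted p between 0.0823 and 0.16). It rose by 0.83 ± 0.27 after bile duct ligation (0.0465) and by 0.82 ± 0.27 after CCl4 (0.0413), calls lost without any 1 of 11 and of 6 arrays, with smallest values of 0.64 without bile duct ligation replicate 3 and 0.60 without CCl4 replicate 1. Culture lay below the injuries at -0.69 ± 0.26 (limma adjusted p = 0.0393), a call lost without culture replicate 1 or 2, bile duct ligation replicate 3 or CCl4 replicate 1, with -0.49 without culture replicate 1.

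Chac1 read 5.89 and 6.13 in coculture against 3.72, 3.10, 4.20, 4.82 and 3.00 in quiescent cells and 4.12, 4.65 and 6.0 in culture. Both coculture arrays lay above every quiescent one, and within the range of culture or just above it. The fitted difference from quiescent was 2.24 ± 0.61 (limma adjusted p = 0.00969), and 2.12 without coculture replicate 3 (adjusted p = 0.0768). No quiescent array reached log2 5 and Chac1 passed the level filter through 5 arrays of other groups, so its size is a description only and no fold is given. Trib3, a pseudokinase target of the same factors, reached log2 5 on 1 array, coculture replicate 3 at 5.19, and Sesn2 on 1, quiescent replicate 4 at 5.14.

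The 2 coculture arrays differed from each other in this module. Of the 36 tested members, 28 (77.8%) were higher in replicate 2 than in replicate 3, against 51.2% of all genes tested, with a median difference of 0.37 against 0.01. Replicate 2 was higher by over 0.8 in 9 members (25%) and in 5.41% of all genes. These were Sdf2l1 by 1.91, Ddit3 by 1.88, Pdia4 by 1.84, Ppp1r15a by 1.76, Creld2 by 1.10, Syvn1 by 0.95, Pdia6 by 0.89, Hspa5 by 0.87 and Dnajb11 by 0.85. Asns and Chac1 were not among them and read slightly higher in replicate 3.

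The counts in coculture differed with the array left out, for members and for all genes. Without replicate 2, 3 members were higher and 2 lower than quiescent, and without replicate 3, 12 were higher and 0 lower. Of all genes tested, 11.2% were higher and 14.1% lower without replicate 2, and 10.9% and 12.5% without replicate 3. Against culture the counts were 0 higher without replicate 2 and 7 higher without replicate 3, where 3.41% and 5.07% of all genes were higher. In these fits the array that remains is taken to vary as the other groups do. With 2 arrays no value says which of them stands for the group, and the members chosen do not serve as replicates of the condition.

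**Figure D4:**
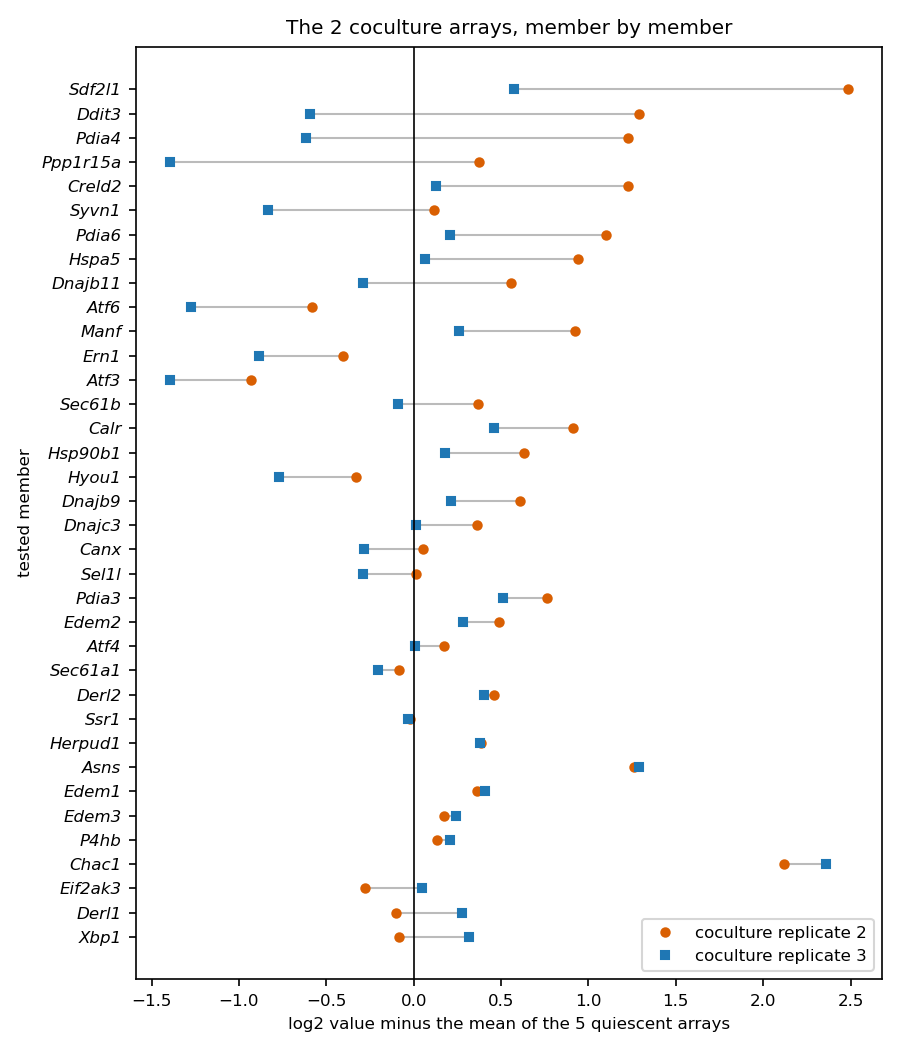
Log2 values of the 36 tested members on the 2 coculture arrays, each minus the mean of the 5 quiescent arrays (horizontal axis), with a grey line joining both arrays of a member. Replicate 2 (circles) lies to the right of replicate 3 (squares) in 28 of 36 members, by over 0.8 in 9.

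Some transcripts of hepatocytes, which also hold an extensive ER, were higher in the injury groups. Of 12 listed hepatocyte markers 10 were on the arrays. Of the 10, 1 (Alb) reached a group mean of log2 5 after bile duct ligation, 4 after CCl4 and 0 in the other groups. The log2 of the summed linear values of the 10 was 4.85 to 5.66 in quiescent cells, 4.90 to 5.39 in culture and 4.88 to 5.10 in coculture. It was 7.75 to 9.23 after bile duct ligation and 8.64 to 11.43 after CCl4. Alb, the serum albumin gene, read 9.0, 7.34 and 8.40 after bile duct ligation and 7.94, 9.26 and 10.79 after CCl4, and between 1.84 and 3.75 in quiescent cells, while Cps1 stayed at a group mean of 1.06 or lower in all groups. By array the sums were 9.23, 7.75 and 8.67 after bile duct ligation and 8.64, 9.47 and 11.43 after CCl4. Bile duct ligation replicate 1 had the highest sum and the highest Creld2, Manf and Hspa5 values of its group, while CCl4 replicate 3 had the highest sum and the lowest values of these genes in its group. The part of these transcripts in the rises of Creld2, Manf, Hspa5, Pdia6, Calr, Derl2, Asns and Sec61b was not tested.

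Markers of other cells were mostly near background. Of 16 macrophage markers at most 2 reached a group mean of log2 5, Cd68 and Lyz2, and the defining Adgre1 and Clec4f had group means below 2.3. Cd68 had means of 7.02 in quiescent cells, 3.74 in culture, 7.82 in coculture, 6.34 after bile duct ligation and 7.06 after CCl4. Culture differed from quiescent by -3.28 ± 0.50 for Cd68 and 2.93 ± 0.63 for Lyz2 (limma adjusted p = 0.000136 and 0.00173). The part of these transcripts in the results of the members was not tested. The log2 of the summed values of the 16 was 6.84 to 8.08 in quiescent, 6.49 to 6.65 in culture, 8.29 to 8.31 in coculture, 7.02 to 8.75 after bile duct ligation and 7.48 to 8.48 after CCl4. Of 9 B and plasma cell markers, a lineage that secretes much protein, only Sdc1 reached log2 5, at 7.02 in coculture, 8.66 after bile duct ligation and 7.71 after CCl4, and Jchain, Mzb1 and Tnfrsf17 stayed at 1.41 or lower. The 8 T and NK cell markers had group means of at most 2.37. Of 5 cholangiocyte markers only Krt19 reached log2 5, at 5.60 in coculture, and of 10 endothelial markers only Egfl7, at 6.47 or lower.

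**Figure D5:**
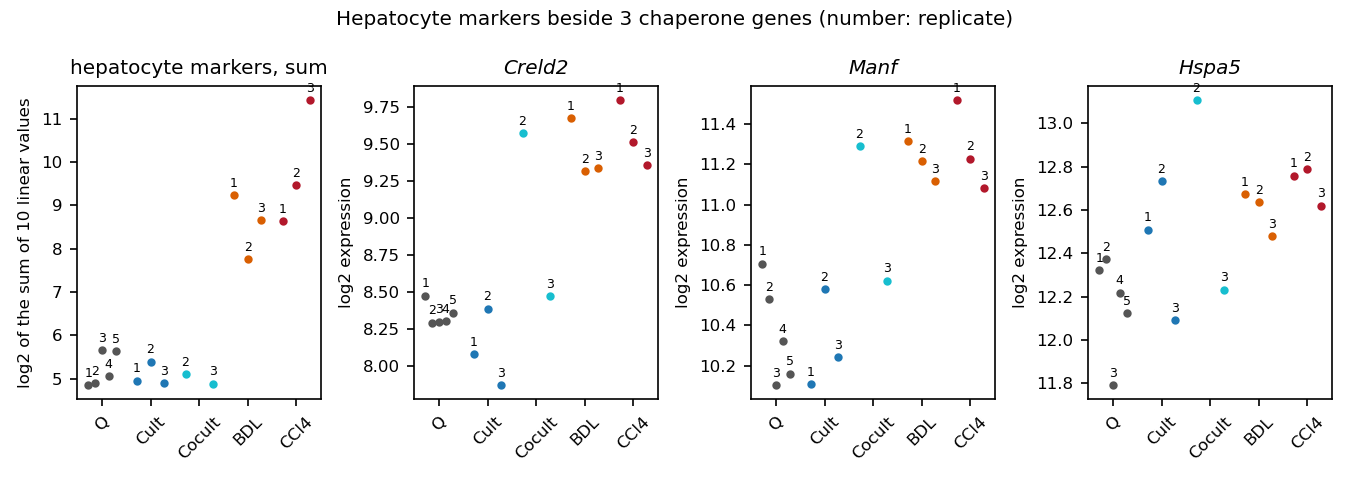
The log2 of the summed linear values of 10 hepatocyte markers and the log2 expression of Creld2, Manf and Hspa5 by array (number: replicate) and group (Q quiescent, Cult culture, Cocult coculture, BDL bile duct ligation, CCl4). In bile duct ligation replicate 1 the hepatocyte sum (9.23) and the 3 chaperone genes are the highest of their group, and in CCl4 replicate 3 the sum is the highest (11.43) and the 3 genes the lowest of theirs. The vertical axes do not start at 0 and differ between panels.

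Other genes of the pathway were read from 5 lists of 95 genes in all, of which 90 were on the arrays and 86 were tested. In culture against quiescent 12 rose and 25 fell (29.1% of the 86), where 18.5% of all genes tested were higher and 23.5% lower. Targets of ATF4 other than the members made up 7 of those falls among 18 tested, and none rose (0 also at an unadjusted p under 0.05, by limma). Slc7a5, an amino acid transporter subunit, fell by 2.19 ± 0.39, Shmt2, of mitochondrial one-carbon metabolism, by 1.45 ± 0.28 and Eprs, a transfer RNA synthetase, by 0.63 ± 0.15. Among folding enzymes 6 rose and 7 fell of 19, with Fkbp7, a prolyl isomerase of the ER, at 1.36 ± 0.19, Mogs, the first glucosidase of glycan trimming, at -1.74 ± 0.25, and Uggt1, the folding sensor of glycoproteins, at -0.54 ± 0.11. Of 20 genes of translocation, signal peptidase and glycan transfer 4 fell, with Ssr4 at -0.48 ± 0.09, Ssr2 at -0.50 ± 0.14 and Rpn1 at -0.34 ± 0.11. Of 12 further degradation genes 2 rose and 3 fell, among them Vcp, the ATPase that pulls proteins from the ER, at -1.01 ± 0.10. Of 17 further sensors and factors 4 rose and 4 fell, with Creb3 at 1.57 ± 0.20 and Atf5 at -1.03 ± 0.21.

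In coculture against quiescent 23 of the 86 rose (26.7%) and 12 fell, where 17.8% of all genes were higher and 20.9% lower. Against culture 20 were higher (23.3%) and 0 lower (1 lower at an unadjusted p under 0.05, by limma), beside 8.37% and 7.03% of all genes. Cth, which makes cysteine and is an ATF4 target, was higher than quiescent by 3.81 ± 0.55 and than culture by 4.12 ± 0.60, from quiescent and culture means of 2.56 and 2.25 near background, so these sizes are descriptions. Ddit4, another target, was higher by 1.77 ± 0.39 and 2.77 ± 0.42, and Nars, the asparagine transfer RNA synthetase, by 0.68 ± 0.10 and 0.63 ± 0.11. Of the 18 further ATF4 targets 6 rose and 1 fell against quiescent, and 8 were higher than in culture. Ero1a, the oxidase that recharges disulfide isomerases, was higher by 2.38 ± 0.25 against quiescent and 1.70 ± 0.27 against culture. Fkbp11 was higher than in culture by 2.67 ± 0.39, and the signal peptidase subunit Spcs3 by 0.97 ± 0.16. The factor gene Nupr1 rose by 1.82 ± 0.32 against quiescent, where Atf5 fell by 1.58 ± 0.24.

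After bile duct ligation 9 of the 86 rose (10.5%) and 3 fell (3.49%), where 8.03% of all genes were higher and 8.83% lower. After CCl4 11 rose (12.8%) and 8 fell (9.3%), beside 9.51% and 12.5%, while 0 were called between the injuries (limma, 10 at an unadjusted p under 0.05). Fkbp11 rose by 1.99 ± 0.31 after bile duct ligation and 2.00 ± 0.31 after CCl4, and Spcs3 by 0.84 ± 0.13 and 1.02 ± 0.13. Creb3l1, which encodes OASIS, a membrane-bound factor linked to collagen secretion, rose by 2.64 ± 0.40 after bile duct ligation, and its difference after CCl4 was 0.94 ± 0.40 (limma adjusted p = 0.103). Nars rose by 0.38 ± 0.09 and 0.66 ± 0.09 and Selenos, of the degradation complex, by 0.61 ± 0.17 and 0.72 ± 0.17. Cth was called higher by 1.57 ± 0.48 and 2.61 ± 0.48, from the quiescent mean near background given above, so these sizes are descriptions. Sec62, of the translocation machinery, fell by 0.43 ± 0.13 and 0.59 ± 0.13.

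In culture against the mean of the injuries 13 of the 86 were higher (15.1%) and 36 lower (41.9%), where 25% of all genes were higher and 25.9% lower. Creb3l1 differed by -3.35 ± 0.38, Fkbp11 by -3.44 ± 0.30, Spcs3 by -1.14 ± 0.13, Ssr2 by -0.87 ± 0.13, Vcp by -1.03 ± 0.09 and Shmt2 by -1.78 ± 0.27. Of the 18 further ATF4 targets 12 were lower and none was higher (0 also at an unadjusted p under 0.05, by limma). Creb3 was higher by 0.88 ± 0.19 and Erlec1, a lectin of the degradation pathway, by 0.67 ± 0.15.

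The members that carried the ER stress response element were set beside those that did not. Of the 9 carriers 8 were tested. In culture against quiescent 1 of them was lower (Syvn1), while of the 23 tested members with a window but no match 5 rose and 4 fell. In coculture 4 carriers rose (Calr, Creld2, Hsp90b1 and Pdia6), beside 5 of 23. Without coculture replicate 2 the differences of these 4 were 0.46, 0.13, 0.18 and 0.21. After bile duct ligation 2 rose (Calr and Creld2), beside 3, and after CCl4 3 rose and 1 fell (Hspa5, Creld2 and Pdia6, and Canx), beside 2 and 2. The median log2 difference of the carriers was -0.12 in culture, 0.45 in coculture, 0.40 after bile duct ligation and 0.35 after CCl4, and that of the other members with a window 0.23, 0.21, 0.01 and -0.01. Of all genes tested, 18.5% were higher and 23.5% lower in culture, and 17.8% and 20.9% in coculture. The shares were 8.03% and 8.83% after bile duct ligation and 9.51% and 12.5% after CCl4. The counts of carriers are small and no test was made of this split.

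The carriers of the other elements went different ways. Of the 2 with element II, Herpud1 rose and Dnajb11 fell in culture. Of the carriers of the amino acid response element that were tested, Asns rose in coculture. Chac1 was called higher there too, but it passed the level filter only through arrays of groups other than quiescent. Herpud1 and Atf3 differed in coculture from quiescent by 0.38 ± 0.22 and -1.16 ± 0.77, and Trib3 was not tested.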

How the data were processed

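The authors deposited log2 expression values per probe set, and GCRMA, which models background from probe sequence and normalises arrays by quantiles, is named in the submitters' processing notes. Its version is not given in the sources used here. Of 45101 probe sets, 64 were controls, 34945 had 1 gene symbol, 932 had several and 9160 others had none. The Entrez identifier of 34741 was found in the RefSeq gene table, and 0 symbols changed. With limma 3.58.1 (R 4.3.3, eBayes with a trend) a model of group means was fitted over the 16 arrays, and tests were two-sided. Genes with log2 5 on at least 2 arrays were tested.

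Members and lists were chosen with earlier results of these data known. The text names every called member, the branch-defining genes with values, and up to 3 called genes per other list and comparison with the smallest adjusted p, of which it gives a part. Changes are log2 differences with standard errors.

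Tested on simulated data for CCl4 against quiescent, with 200 of 7823 genes changed, the fit recovered 69% at a log2 change of 1 and 96% at 2. Same-numbered arrays of different groups did not as a rule deviate together (median correlation -0.006), and the number was not used as a block in the main fit. The alternatives were the filter, the probe set rule, the variance model, centring, array weights, the arrays included, the replicate block and leaving out arrays, 1 at a time or the 3 that an earlier look at these data had set apart. The third coculture sample was not analysed here. Protein sequences were not used here.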

Additional observations from a re-analysis of the deposited data

Results flagged for a closer look

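In the quiescent group, where 36 members were examined, 1 array stood far from the other 4 in 2 genes of the translocon. Sec61b read 10.20 on quiescent replicate 1, with the next array at 9.93, a gap of 0.744 of the range of the group. Ssr1 read 10.36 on the same array, with the next at 10.11, a gap of 0.748. The critical share for 5 arrays is 0.71, and chance flags about 1 in 20 groups. For Pdia6, P4hb and Creld2 the differences from quiescent had opposite signs in culture and coculture, and limma called the difference between those 2 groups. Against quiescent itself each gene was called on 1 side only: Creld2 and Pdia6 in culture and P4hb in coculture did not pass. Creld2 was at -0.23 in culture and 0.68 in coculture, a difference of 0.91. Pdia6 was at -0.10 and 0.65, a difference of 0.76. P4hb was at -0.51 and 0.17, a difference of 0.68. The differences of Creld2 and Pdia6 rest on coculture replicate 2, as given above.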

How the results depend on the processing

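Of 61 called member results 22 kept direction and call in all 26 alternative settings, and of 191 not called 138 stayed so throughout. Members higher in culture than quiescent (5) numbered 3 with no filter, 13 with array weights, 3 with only the groups compared, 3 with CCl4 replicate 3, culture replicate 3 and quiescent replicate 4 left out at once, and 2 with the replicate block. Those lower (8) were 5 with the largest-variance probe set and 4 without these 3 arrays. Coculture rises (10) were 5 with only the groups compared, and its falls (2) were 1 there, with the mean of all probe sets and with the largest variance. Bile duct ligation rises (6) were 3 with no filter, and its falls (0) were 1 with the largest variance and with array weights. CCl4 rises (6) were 3 with no filter and with no variance trend and 10 with array weights, and its falls (3) were 0 with no filter and with centring, 1 with no trend and with only the groups compared, and 1 with the replicate block. Members higher in coculture than culture (6) were 1 with only the groups compared and 3 without the 3 arrays. Those higher in culture than in the injuries (3) were 5 with the mean and with the largest variance and 9 with array weights. Leaving out 1 array at a time gave, higher and lower, 3 to 5 and 5 to 9 in culture, 3 to 12 and 0 to 3 in coculture, 3 to 7 and 0 to 1 after bile duct ligation, 3 to 8 and 0 to 3 after CCl4, 0 to 8 and 0 to 1 in coculture against culture, 0 between the injuries, and 2 to 4 and 9 to 13 in culture against the injuries. Replicate numbers were not taken to pair the arrays. Same-numbered pairs correlated between -0.259 and 0.537 (26 pairs, median -0.006, 7 over 0.1), and 5 of 16 arrays matched their own number best. With so few arrays per group these values cannot exclude that some arrays are paired.

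Signs turned under the other probe set rules, in 4 called results (Edem3 in culture and against the injuries, Sel1l after CCl4 and Atf6 in coculture) and in 5 that were not called as reported. With the mean of all probe sets Edem3 was -0.18 in culture, Sel1l 1.06 in coculture and 0.037 after CCl4, and against the injuries Dnajc3 0.38 and Edem3 -0.040 in culture. With the largest-variance probe set Atf6 was 0.69 in coculture, 0.84 after CCl4 and 1.14 against culture, Sel1l 2.35 in coculture and 0.62 after CCl4, and Edem1 0.80 in coculture against culture. These come from different probe sets of the same genes, and the cause was not tested.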
